A study of Trichoderma reesei with 12 samples.

Results

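The genes described here are 8 genes of Trichoderma reesei for the building, breakdown and use of storage carbohydrates. They include the glycogen phosphorylase Gph1 (TrC0723W), a glycogen debranching enzyme (TrG1003W), a branching enzyme (TrD0512C) and an alpha-amylase (TrC1401C). The others are an oligo-1,6-glucosidase (TrC1397C), a glucoamylase (TrE0969W), an alpha-glucosidase (TrD1393W) and the hexokinase Hxk1 (TrE0694C). All 8 were taken from the scheme of carbon metabolism that the study drew for its growth assays. The scheme gives them these roles, and the rule uses no measured value. The genes are 8 of 10879 in the deposited table, and all 8 were among the 8895 genes with enough reads to be tested. T. reesei is a filamentous fungus known for its cellulases, and rgs4 encodes a regulator of G-protein signaling. The groups were Δrgs4 in constant light (LL), wild-type in LL, Δrgs4 in constant darkness (DD) and wild-type in DD, with 3 libraries each. The wild-type was QM6a, and QM6aΔrgs4 was 1 strain in the QM6a background. In it an hph marker for hygromycin resistance replaced rgs4, and the study's methods report more than 1 integrated copy of the cassette. The methods add that, among progeny of a cross, slower growth on glucose went with the deletion. Mycelium of QM6a and QM6aΔrgs4 was grown in minimal medium on cellulose at 28 °C for 96 h, in triplicate shake flasks.

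Fungi store glucose as glycogen, a branched polymer that the branching enzyme builds together with glycogen synthase. Glycogen phosphorylase releases glucose-1-phosphate from the chain ends, and the debranching enzyme removes the branch points at which it stops. Amylases and glucosidases instead cut glycogen, starch and dextrins with water, by way of maltose and other short sugars, to free glucose, which hexokinase phosphorylates for glycolysis.

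The libraries held between 11.25 M and 15.84 M reads on genes. The deleted gene rgs4 (TrG0496W) had 4, 0 and 0 reads in Δrgs4 in LL, against 1470, 2040 and 1961 in wild-type in LL, and 5, 0 and 0 reads in Δrgs4 in DD, against 1710, 1588 and 1627 in wild-type in DD, so these reads fitted the genotype label of all 12 libraries. Replicate 3 of Δrgs4 in DD stood apart from its mates, with a median absolute deviation from them of 0.207 on the log2 scale over genes, against 0.1 to 0.155 in the other libraries. Counts and calls that rest on it are therefore given with and without it, as are the values it moves most. The RNA came from whole mycelium, in which fewer cells of a kind and less RNA per cell cannot be told apart.

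The 8 genes differed widely in level. Per kilobase of the gene's span in RefSeq, which comes from another genome build and includes introns, Gph1 was the highest of the 8 in every group, with 3232 ± 433 normalized counts per kilobase in Δrgs4 in LL, 2861 ± 9.99 in wild-type in LL, 4416 ± 354 in Δrgs4 in DD and 3381 ± 203 in wild-type in DD (SD, n = 3 each). The alpha-amylase and the oligo-1,6-glucosidase were the lowest in every group, and their library ranges lay apart from each other and from those of the other 6 genes. On the same scale the alpha-amylase had 157.9, 146.7, 187.5 and 164.2 in these groups and the oligo-1,6-glucosidase 17.8, 19.3, 56.7 and 56.7. The other 5 lay between 842 and 2157. Among these the order changed with the culture: Hxk1 ranked above the alpha-glucosidase in LL and below it in DD, in both strains, although the library ranges of this pair overlapped in both wild-type groups. In wild-type in DD the branching enzyme, the debranching enzyme and the glucoamylase, at 1149, 1119 and 1083, had overlapping ranges from one to the next. By mean normalized count, without regard to length, Gph1 exceeded 98.6% of the tested genes and the oligo-1,6-glucosidase 16.1%. The oligo-1,6-glucosidase rested on 23 to 110 reads per library, against 8810 to 18777 for Gph1.

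**Figure D1:**
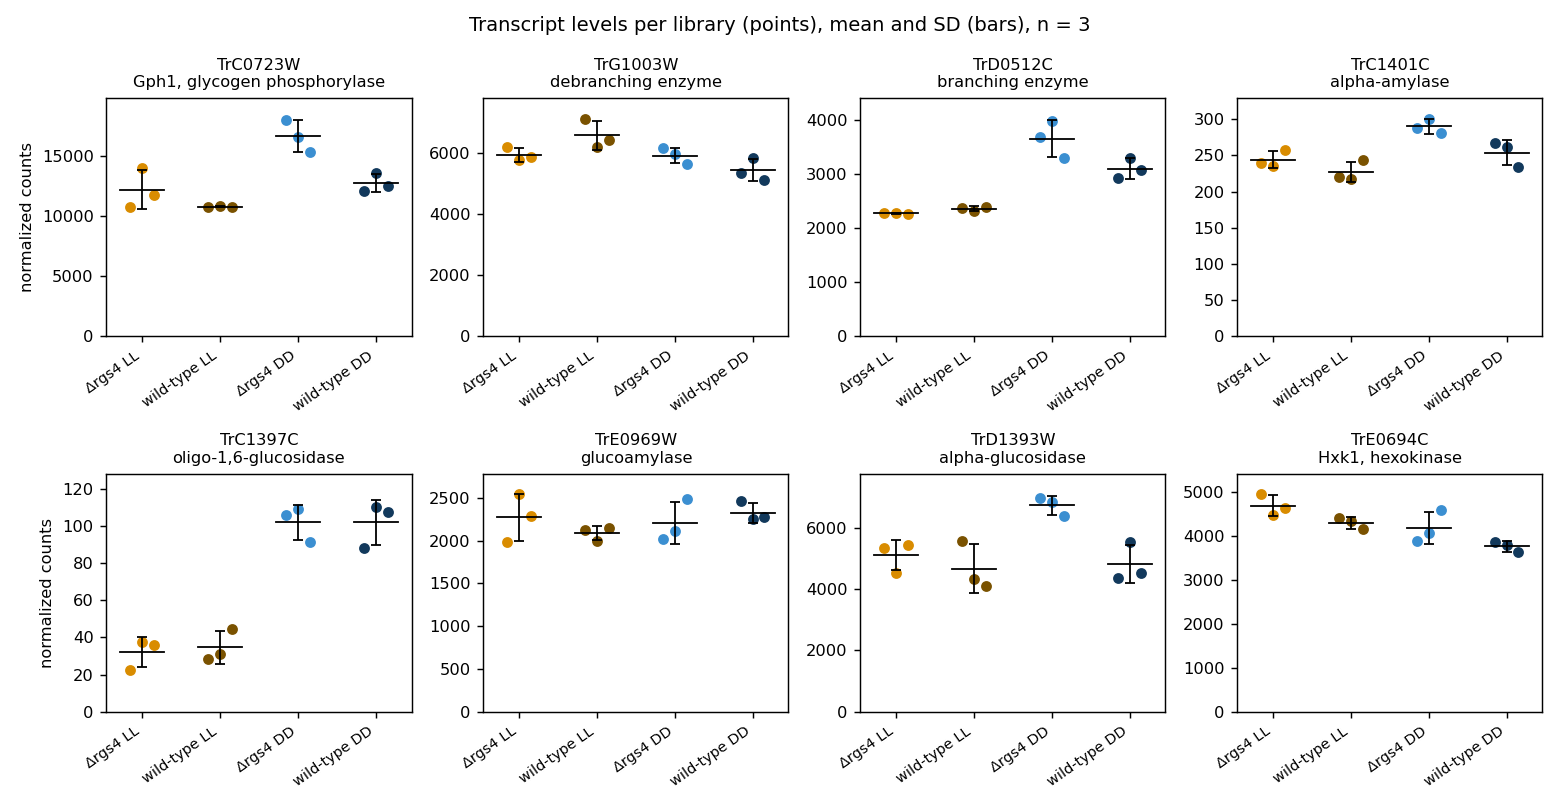
Normalized counts (vertical axes, from 0, a scale of its own for each gene) of the 8 genes in the 12 libraries, by group; points are libraries, long bars the mean and error bars the SD (n = 3). The oligo-1,6-glucosidase had 22.6 to 44.6 normalized counts in the 6 LL libraries and 88.0 to 110.2 in the 6 DD libraries, and Gph1 and the alpha-glucosidase were highest in Δrgs4 in DD.

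The first question was whether loss of rgs4 changed these transcripts. In LL, 0 of the 8 genes passed the limma test at an absolute log2 fold change over 0.58 and an adjusted p under 0.05, where 0.427% of all tested genes were called higher and 1.69% lower in Δrgs4 than in wild-type. None of the 8 had an unadjusted p under 0.05, and limma-voom called 0 as well. Their log2 fold changes ran from -0.15 to 0.17 with a median of 0.11 (0.02 over all tested genes), 5 positive and 3 negative, and the adjusted p values from 0.221 to 0.788. The 95% intervals of 7 of the 8 lay inside ±0.58; the exception was the oligo-1,6-glucosidase (-0.60 to 0.38). In DD, 0 of the 8 were called as well, where 0% of all tested genes were called higher and 0.0899% lower. Here 3 of the 8 had an unadjusted p under 0.05, all with higher values in Δrgs4 (Gph1, the alpha-glucosidase and the branching enzyme), and limma-voom again called 0. The share of all tested genes at an unadjusted p under 0.05 was not computed, here or for later comparisons, so such counts have no background. The log2 fold changes in DD ran from -0.08 to 0.49 with a median of 0.17 (0.01 over all tested genes), 7 positive and 1 negative. Of all tested genes, 53.7% were positive in DD and 53.7% in LL.

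Of the enzymes of glycogen breakdown, Gph1 had 10799, 13998 and 11811 normalized counts in Δrgs4 in LL, against 10768, 10841 and 10788 in wild-type in LL. In DD Gph1 reached 18038, 16606 and 15364 in Δrgs4, against 12129, 13613 and 12546 in wild-type. The strains overlapped in LL, where the 3 wild-type libraries were nearly equal and replicate 1 of Δrgs4 lay among them, while in DD every Δrgs4 library lay above every wild-type library. The difference between Δrgs4 and wild-type in DD was 0.38 on the log2 scale (SE 0.10, 95% interval 0.17 to 0.60, limma adjusted p = 0.138). Without replicate 3 of Δrgs4 in DD, the lowest of its group for this gene, it was 0.44 with an adjusted p of 0.0355, still under the fold threshold. With each library left out in turn, it ranged from 0.33 to 0.44, with limma adjusted p from 0.0355 to 0.466. In LL the difference was 0.17 (SE 0.10, limma adjusted p = 0.3).

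The debranching enzyme TrG1003W had 6188, 5762 and 5848 normalized counts in Δrgs4 in LL, against 7118, 6204 and 6410 in wild-type in LL. The DD values were 6146, 5951 and 5637 in Δrgs4, against 5325, 5837 and 5126 in wild-type. In LL every Δrgs4 library lay below every wild-type library, by little between the nearest pair, and in DD the strains overlapped. The log2 fold changes were -0.15 in LL (SE 0.07, limma adjusted p = 0.221; -0.24 with an adjusted p of 0.0457 when total reads set the library size, still under the fold threshold) and 0.12 in DD (SE 0.07, limma adjusted p = 0.53; 0.16 without replicate 3 of Δrgs4).

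The branching enzyme TrD0512C, the only one of the 8 that builds glycogen, had 2272, 2278 and 2265 normalized counts in Δrgs4 in LL, against 2365, 2311 and 2397 in wild-type in LL. The DD values were 3690, 3981 and 3294 in Δrgs4, against 2924, 3304 and 3073 in wild-type. The LL libraries of each strain were tightly grouped and did not overlap, yet the log2 fold change was only -0.05 (SE 0.07, limma adjusted p = 0.68). In DD replicate 3 of Δrgs4 lay just below the highest wild-type library, and the other Δrgs4 libraries lay above all 3. The log2 fold change in DD was 0.23 (SE 0.07, limma adjusted p = 0.204), and 0.31 with an adjusted p of 0.0236 without that library. With each library left out in turn, it ranged from 0.17 to 0.31, with limma adjusted p from 0.0236 to 0.558.

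Among the hydrolases, the alpha-glucosidase TrD1393W, which releases glucose from maltose and related sugars, had 6987, 6837 and 6406 normalized counts in Δrgs4 in DD, against 4382, 5532 and 4542 in wild-type in DD. In LL it had 5345, 4547 and 5437 in Δrgs4, against 5586, 4338 and 4102 in wild-type. The strains did not overlap in DD and overlapped in LL. Its log2 fold change in DD, 0.49, was the largest of the 8 genes between the strains (SE 0.12, 95% interval 0.22 to 0.77, limma adjusted p = 0.14). It was 0.53 with an adjusted p of 0.0514 without replicate 3 of Δrgs4 in DD. With each library left out in turn, it ranged from 0.43 to 0.59, with limma adjusted p from 0.0514 to 0.445. In LL the value was 0.14 (SE 0.12, limma adjusted p = 0.527).

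The alpha-amylase TrC1401C, which cuts inside the chains, had 239.7, 236 and 257.6 normalized counts in Δrgs4 in LL, against 220, 217.5 and 243.7 in wild-type in LL. In DD it had 288.2, 300.9 and 281.6 in Δrgs4, against 266.9, 261.1 and 234.4 in wild-type. The strains overlapped in LL and not in DD, where the log2 fold change was 0.19 (SE 0.09, limma adjusted p = 0.408) and 0.21 without replicate 3 of Δrgs4. The oligo-1,6-glucosidase TrC1397C, which opens branch points in short sugars, had 22.6, 37.6 and 35.8 in Δrgs4 in LL, against 28.1, 31.3 and 44.6 in wild-type in LL. The DD values were 105.7, 108.9 and 91.1 in Δrgs4, against 88.0, 110.2 and 107.7 in wild-type. It overlapped between the strains in both conditions. Its log2 fold changes of -0.11 in LL and 0.00 in DD (SE 0.22 in both) left 95% intervals of -0.60 to 0.38 and -0.49 to 0.49, the widest of the 8 genes, and its sign in either condition turned when single libraries were left out.

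The glucoamylase TrE0969W, which frees glucose from chain ends, had 1989, 2540 and 2288 normalized counts in Δrgs4 in LL, against 2129, 1997 and 2145 in wild-type in LL. In DD it had 2018, 2109 and 2490 in Δrgs4, against 2461, 2251 and 2271 in wild-type. It overlapped between the strains in both conditions, and it was the only gene of the 8 with a negative value in DD, -0.08 (SE 0.10, limma adjusted p = 0.807; -0.17 without replicate 3 of Δrgs4, which was the highest of its group for this gene). The hexokinase Hxk1, the step from free glucose into glycolysis, had 4949, 4486 and 4624 in Δrgs4 in LL, against 4399, 4343 and 4148 in wild-type in LL. The DD values were 3881, 4067 and 4592 in Δrgs4, against 3870, 3802 and 3627 in wild-type. Its Δrgs4 libraries lay above all wild-type libraries in both conditions, the only gene of the 8 to do so. The nearest pair in DD differed by little, 3881 against 3870, and the share of all tested genes above in both conditions was not computed. The differences were 0.12 in LL (SE 0.07, limma adjusted p = 0.283) and 0.15 in DD (SE 0.07, limma adjusted p = 0.419), and 0.08 in DD without replicate 3 of Δrgs4, again the highest of its group.

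Counted over the 8 genes, the Δrgs4 libraries lay all above the wild-type libraries for 1 gene in LL and 4 in DD, where 17.9% and 9.15% of all tested genes did so. They lay all below for 2 genes in LL and 0 in DD, where 16.1% and 7.39% of all tested genes did so. The count above in LL was near the share over all tested genes. Without replicate 3 of Δrgs4, which leaves 2 libraries against 3, the counts in DD were 6 above and 1 below, where 24.9% and 21% of all tested genes did so.

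**Figure D2:**
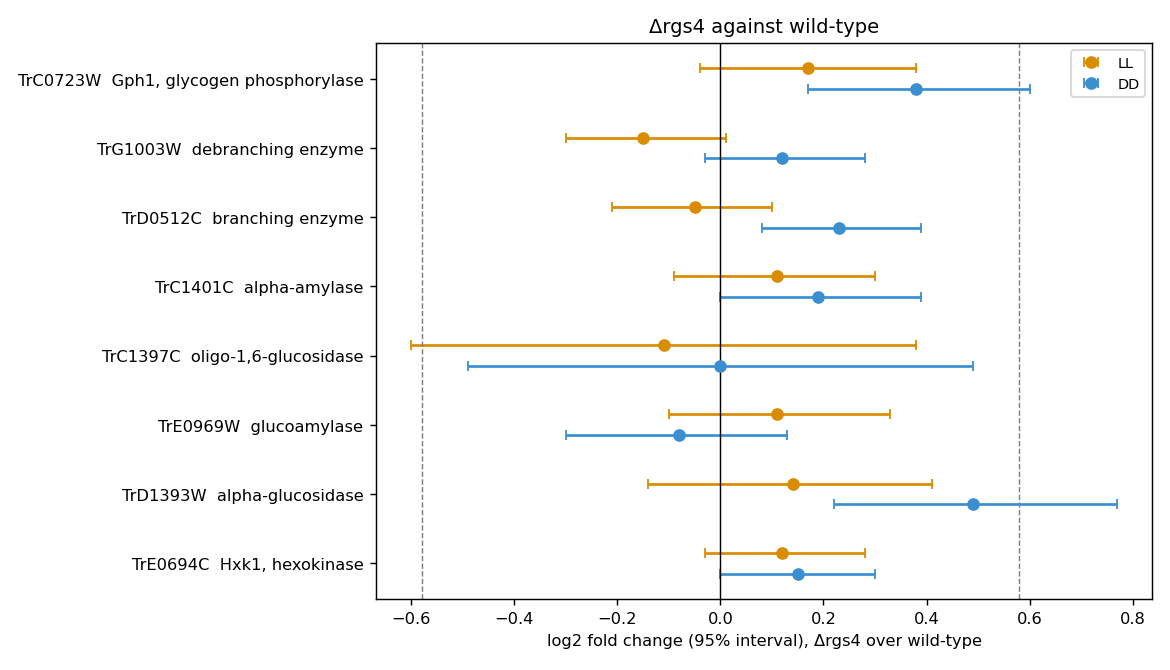
Log2 fold change of Δrgs4 over wild-type (horizontal axis) with its 95% interval for the 8 genes in LL and in DD; dashed lines mark the fold threshold of 0.58. The values lie between -0.15 and 0.17 in LL and between -0.08 and 0.49 in DD, and the DD intervals of Gph1 and the alpha-glucosidase cross the upper dashed line.

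Leaving out replicate 3 of Δrgs4 in DD brought 2 of the 8 genes under an adjusted p of 0.05 in DD, Gph1 and the branching enzyme, with 0 past the fold threshold. At that p alone, 6.04% of all tested genes passed without this library. The number of all tested genes called in DD, with the fold threshold included, was 283 without this library, against 8 with it. For the glucoamylase and Hxk1 this library was the highest of its group and for the other 6 genes the lowest.

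**Figure D3:**
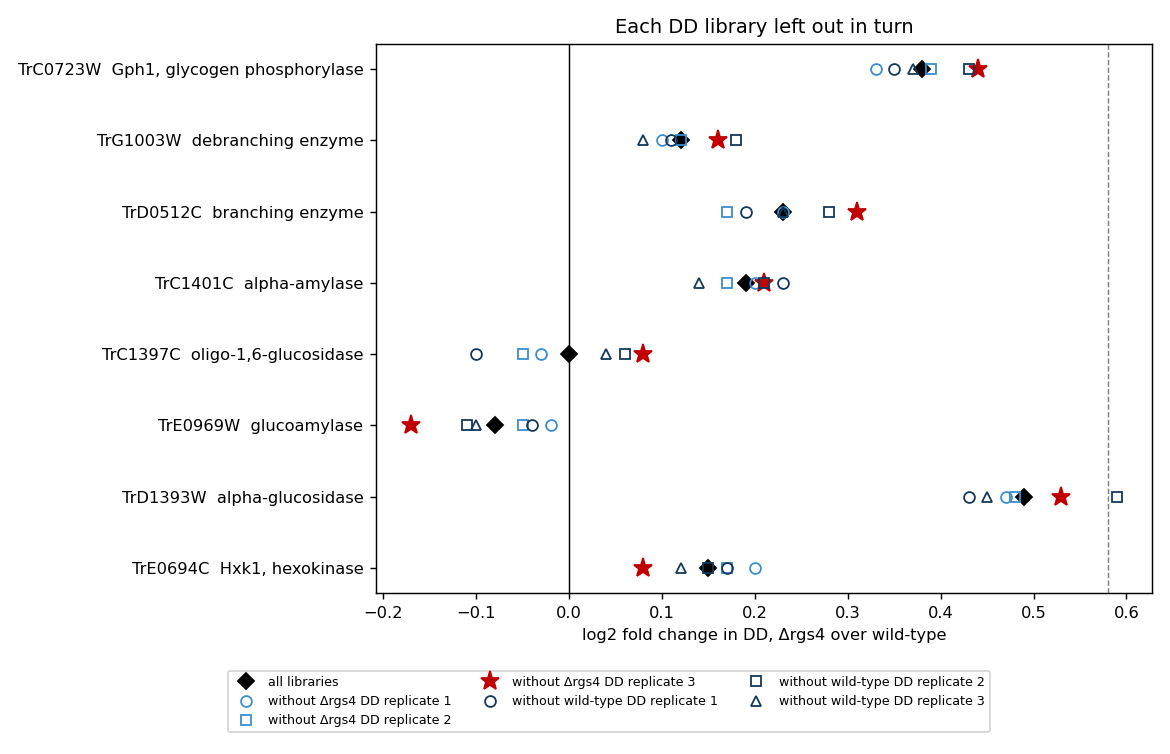
Log2 fold change of Δrgs4 over wild-type in DD (horizontal axis) for the 8 genes with all libraries (diamonds) and with each DD library left out in turn; the dashed line marks the fold threshold of 0.58. Stars, without replicate 3 of Δrgs4, lie at 0.44 for Gph1, 0.31 for the branching enzyme and -0.17 for the glucoamylase.

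The effect of the deletion in LL was then set against that in DD in 1 model, as the difference between them. None of the 8 genes (0) was called for this interaction by limma or by limma-voom, where 0.202% of all tested genes were called positive and 0.506% negative, and 2 of the 8 had an unadjusted p under 0.05. For that unadjusted count no share over all tested genes was computed. The values were negative for 7 genes and positive for 1, where 50.3% of all tested genes were positive. Their median was -0.17 (0.00 over all tested genes). Hxk1 turned positive (0.05) when replicate 3 of Δrgs4 in DD was left out, beside the glucoamylase (0.29). In that fit 2 of the 8 were thus positive, and 3 had an unadjusted p under 0.05 by limma. The median of the 8 was then -0.23 (-0.01 over all tested genes). The branching enzyme had -0.29 (SE 0.10, limma adjusted p = 0.169) and the debranching enzyme -0.27 (SE 0.10, limma adjusted p = 0.197). The alpha-glucosidase had -0.35 with a wider interval (-0.74 to 0.03, limma adjusted p = 0.326). Without replicate 3 of Δrgs4 in DD the value of the branching enzyme was -0.36 with an adjusted p of 0.0455, under the fold threshold. With each library left out in turn its limma adjusted p ranged from 0.0455 to 0.306. The effect of the deletion was thus not shown to differ between light and darkness for any of the 8 genes.

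Light moved more of these genes than the deletion did in numbers called. In LL against DD, limma called 2 of the 8 lower in Δrgs4 and 1 lower in wild-type, and 0 higher in either strain. Among all tested genes 22% were called lower and 14.2% higher in Δrgs4, and 21.6% lower and 15.3% higher in wild-type, so these counts were near the share over all tested genes. At an adjusted p under 0.05 without the fold threshold, 5 of the 8 differed in Δrgs4 and 4 in wild-type, where 59.2% and 59.1% of all tested genes did so, again near that share. Without replicate 3 of Δrgs4 in DD, the same 2 genes, the oligo-1,6-glucosidase (-1.72) and the branching enzyme (-0.75), were called lower in Δrgs4. In that fit 22.5% of all tested genes were called lower and 14.3% higher. There 6 of the 8 had an adjusted p under 0.05 in Δrgs4, Hxk1 being added, and 5 in wild-type, Gph1 being added. The shares of all tested genes at that p alone were not computed. The median log2 fold change of the 8 was -0.33 in Δrgs4 and -0.16 in wild-type (-0.01 over all tested genes in each).

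The oligo-1,6-glucosidase fell in LL in both strains. It averaged 32.0 ± 8.18 normalized counts in LL and 102 ± 9.47 in DD in Δrgs4, and 34.7 ± 8.72 in LL and 102 ± 12.2 in DD in wild-type (SD, n = 3 each). Every LL library lay below every DD library, with the highest of the LL libraries at 44.6 and the lowest of the DD libraries at 88.0. The log2 fold change was -1.64 in Δrgs4 (3.11-fold lower, SE 0.22, limma adjusted p = 7.46e-05) and -1.52 in wild-type (2.87-fold lower, SE 0.22, limma adjusted p = 0.000127), and the difference between these responses was -0.12 (95% interval -0.81 to 0.58).

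The branching enzyme was called lower in LL in Δrgs4 and not in wild-type. It averaged 2271 ± 6.65 normalized counts in LL and 3655 ± 345 in DD in Δrgs4, and 2358 ± 43.4 in LL and 3100 ± 191 in DD in wild-type (SD, n = 3 each). The 2 conditions did not overlap in either strain. The log2 fold change was -0.68 in Δrgs4 (1.6-fold lower, SE 0.07, limma adjusted p = 9.01e-06) and -0.39 in wild-type (1.31-fold lower, SE 0.07, limma adjusted p = 0.000569), which passed the p but not the fold threshold. The call in Δrgs4 was lost when the fold threshold was itself tested. The test of the difference between the strains is the interaction above, which missed the threshold.

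Gph1 averaged 12203 ± 1635 normalized counts in LL and 16670 ± 1338 in DD in Δrgs4, and 10799 ± 38.0 in LL and 12763 ± 765 in DD in wild-type (SD, n = 3 each). The LL libraries lay below the DD libraries in both strains. Its log2 fold change was -0.46 in Δrgs4 (SE 0.10, limma adjusted p = 0.00181) and -0.24 in wild-type (SE 0.10, limma adjusted p = 0.0512), both under the fold threshold. The limma adjusted p in wild-type was 0.0404 in the fit without replicate 3 of Δrgs4 in DD. It ranged from 0.0204 to 0.165 with each library left out in turn. The alpha-glucosidase had -0.40 in Δrgs4 (SE 0.12, limma adjusted p = 0.0158), where the LL libraries lay below all DD libraries, and -0.05 in wild-type (SE 0.12, limma adjusted p = 0.754), where they overlapped. The alpha-amylase had -0.25 in Δrgs4 (SE 0.09, limma adjusted p = 0.031) and -0.16 in wild-type (SE 0.09, limma adjusted p = 0.136).

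The debranching enzyme and Hxk1 were the genes with higher values in LL in wild-type. The debranching enzyme averaged 6577 ± 480 normalized counts in LL and 5430 ± 367 in DD in wild-type, a log2 fold change of 0.28 (SE 0.07, limma adjusted p = 0.00602), with no overlap. In Δrgs4 it averaged 5933 ± 226 in LL and 5911 ± 257 in DD, a log2 fold change of 0.01 (95% interval -0.15 to 0.16). Hxk1 averaged 4687 ± 238 in LL and 4180 ± 369 in DD in Δrgs4, and 4297 ± 132 in LL and 3766 ± 125 in DD in wild-type. Its log2 fold changes were 0.17 (SE 0.07, limma adjusted p = 0.0564) in Δrgs4 and 0.19 (SE 0.07, limma adjusted p = 0.0337) in wild-type. Without replicate 3 of Δrgs4 in DD, the value in Δrgs4 was 0.24 with an adjusted p of 0.00706. With each library left out in turn, it ranged from 0.12 to 0.24, with limma adjusted p from 0.00706 to 0.2. The glucoamylase had 0.04 in Δrgs4 (95% interval -0.17 to 0.26), where the conditions overlapped. In wild-type its LL libraries lay below all DD libraries, but the difference of -0.15 did not pass the test (95% interval -0.37 to 0.06, limma adjusted p = 0.194).

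Counted over the 8 genes, the LL libraries lay all below the DD libraries for 5 genes in Δrgs4 and 4 in wild-type, where 32.5% and 35.1% of all tested genes did so. They lay all above for 0 genes in Δrgs4 and 2 in wild-type, where 30.5% and 33% of all tested genes did so. The counts in Δrgs4 without replicate 3 in DD were 5 below and 1 above, where 38.3% and 35.8% of all tested genes did so.

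**Figure D4:**
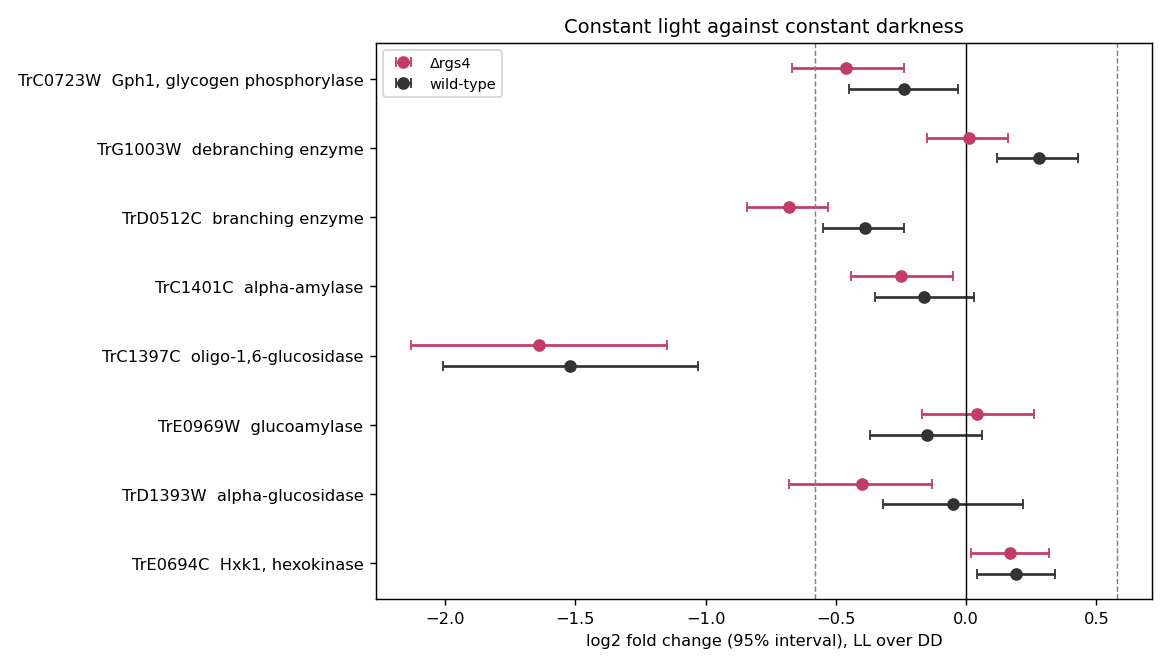
Log2 fold change of LL over DD (horizontal axis) with its 95% interval for the 8 genes in Δrgs4 and in wild-type; dashed lines mark the fold threshold of 0.58. The oligo-1,6-glucosidase lies at -1.64 in Δrgs4 and -1.52 in wild-type, and the other genes lie between -0.68 and 0.28.

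Over the 4 group means, the oligo-1,6-glucosidase spanned 1.64 on the log2 scale, wider than 82.7% of the tested genes, and the glucoamylase 0.15, wider than 5.2%. Gph1 (0.62), the branching enzyme (0.68) and the alpha-glucosidase (0.54) lay near the median of 0.61 over all tested genes, and the debranching enzyme (0.28), Hxk1 (0.31) and the alpha-amylase (0.35) lay under it. Δrgs4 in DD had the highest mean for Gph1, the branching enzyme, the alpha-amylase and the alpha-glucosidase, while the oligo-1,6-glucosidase had the same mean of 102 normalized counts in both strains in DD. Over the 12 libraries, which share the 4 groups so that the light response enters every coefficient, Pearson's r was 0.92 between the branching enzyme and the oligo-1,6-glucosidase, 0.83 between the branching enzyme and Gph1, and 0.81 between the alpha-amylase and each of Gph1 and the branching enzyme. Hxk1 ran the other way from the oligo-1,6-glucosidase (-0.78) and the branching enzyme (-0.61). The debranching enzyme had an r of -0.29 with Gph1. These coefficients describe 12 points and were not tested.

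By the same measure, the tested genes with the pattern most like each of the 8 were as follows. TrA1128W (r = 0.947), TrG0705C (0.947) and TrA0558W (0.945) were nearest to Gph1, and TrG0957C (0.956), TrA0642W (0.941) and TrG0443C (0.931) to Hxk1. TrB0545C (0.982), TrC1503W (0.981) and TrB0105W (0.977) were nearest to the branching enzyme, and TrE0376C (0.912), TrC0088C (0.911) and TrC1002C (0.901) to the debranching enzyme. TrE0706W (0.989), TrG0321W (0.988) and TrF0195W (0.986) were nearest to the oligo-1,6-glucosidase, and TrE0058C (0.916), TrG0980W (0.907) and TrC0053C (0.896) to the alpha-amylase. TrC0265C (0.868), TrF0947C (0.865) and TrB1543W (0.858) were nearest to the glucoamylase, and TrE1167C (0.902), TrA2128C (0.873) and TrC0270W (0.869) to the alpha-glucosidase. None of these 24 genes was one of the 8. An r over 0.9 was reached by 1201 tested genes for the oligo-1,6-glucosidase and 762 for the branching enzyme, against 0 for the glucoamylase and 21 for Gph1.

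The other 6 genes with an identifier in the scheme are the beta-galactosidase Bga1 (TrD0438C) and enzymes of xylose, arabinose and galactose use, namely the xylose reductase Xyl1 (TrB0496C), the arabitol dehydrogenase Lad1 (TrB1462W), the hexulose reductase Lxr4 (TrB1351W), the xylulose reductase Lxr3 (TrA0483W) and the xylitol dehydrogenase Xdh1 (TrB1604C). For the deletion limma called 0 of the 6 in LL and 0 in DD. At an unadjusted p under 0.05 there was 1 in LL and 0 in DD, with no share over all tested genes computed. All 6 values were positive in both, with medians of 0.09 in LL and 0.36 in DD, where 53.7% of all tested genes were positive in each. With replicate 3 of Δrgs4 in DD left out, limma called 3 of the 6 higher in Δrgs4 in DD, where 1.74% of all tested genes were called higher. These were Bga1 at 0.76 (adjusted p = 0.0204), Lxr3 at 0.63 (adjusted p = 0.0134) and Xdh1 at 0.66 (adjusted p = 0.0295), and the median of the 6 was 0.64. For these 6 genes the fits that leave out any other library were not examined. Bga1 had 1531, 1486 and 636.9 normalized counts in Δrgs4 in DD, against 776.9, 1102 and 815 in wild-type in DD, so that replicate 3 lay below all wild-type libraries and the other Δrgs4 libraries above them. For light, 2 of the 6 were called lower in LL in both strains, where 22% of all tested genes were called lower in Δrgs4 and 21.6% in wild-type. Xyl1 had -2.66 in Δrgs4 (limma adjusted p = 7.56e-08) and -2.81 in wild-type (limma adjusted p = 4.69e-08), and Bga1 had -1.85 in Δrgs4 (limma adjusted p = 0.000165) and -1.87 in wild-type (limma adjusted p = 0.000146). In wild-type 2 were called higher, Lxr4 by 0.86 and Lxr3 by 0.81 on the log2 scale, where 15.3% of all tested genes were called higher. Lxr4 and Lxr3 had 0.56 and 0.51 in Δrgs4, under the fold threshold. In the fit that left out replicate 3 of Δrgs4 in DD, the values in Δrgs4 were -2.80 for Xyl1, -2.26 for Bga1, 0.32 for Lxr4 and 0.24 for Lxr3, the calls being the same 2 genes.

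TrC1397C and TrC1401C, the oligo-1,6-glucosidase and the alpha-amylase, are numbered near each other, and the genes TrC1394 to TrC1404 were examined with them. Of the 9 other genes, 8 had enough reads to be tested. Of these 8, limma called 0 for the deletion in LL and 0 in DD, with 1 at an unadjusted p under 0.05 in each. For light, 1 was called higher and 2 lower in LL in Δrgs4, where 14.2% and 22% of all tested genes were. In wild-type 2 were called higher and 2 lower, where 15.3% and 21.6% of all tested genes were. Neighbours of the oligo-1,6-glucosidase thus went both ways, with counts near the shares over all tested genes. TrC1398W, next to it, had 32.56, 15.96 and 30.26 normalized counts in LL, against 9.61, 5.86 and 3.68 in DD in Δrgs4, and 25.7, 25.4 and 36.0 in LL, against 2.84, 8.56 and 6.04 in DD in wild-type. All LL libraries of this gene lay above all DD libraries, on few reads, with a log2 fold change of 1.76 in Δrgs4 (limma adjusted p = 0.00227) and 2.04 in wild-type (limma adjusted p = 0.000785). TrC1399W had -1.32 in Δrgs4 (limma adjusted p = 6.57e-06) and -0.88 in wild-type (limma adjusted p = 0.00014), and TrC1394W had -1.19 in Δrgs4 (limma adjusted p = 0.0353, with overlapping libraries) and -1.78 in wild-type (limma adjusted p = 0.00449). TrC1403C had 0.48 in Δrgs4, under the fold threshold, and 0.91 in wild-type (limma adjusted p = 3.68e-05). When replicate 3 of Δrgs4 in DD was left out, 0 of the 8 were called for the deletion in DD. At an unadjusted p under 0.05 there were 4, again with no share over all tested genes computed. For light in Δrgs4, 2 were then called higher and 2 lower, where 14.3% and 22.5% of all tested genes were. These were TrC1398W at 1.51, TrC1403C at 0.59, TrC1399W at -1.45 and TrC1394W at -1.72.

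**Figure D5:**
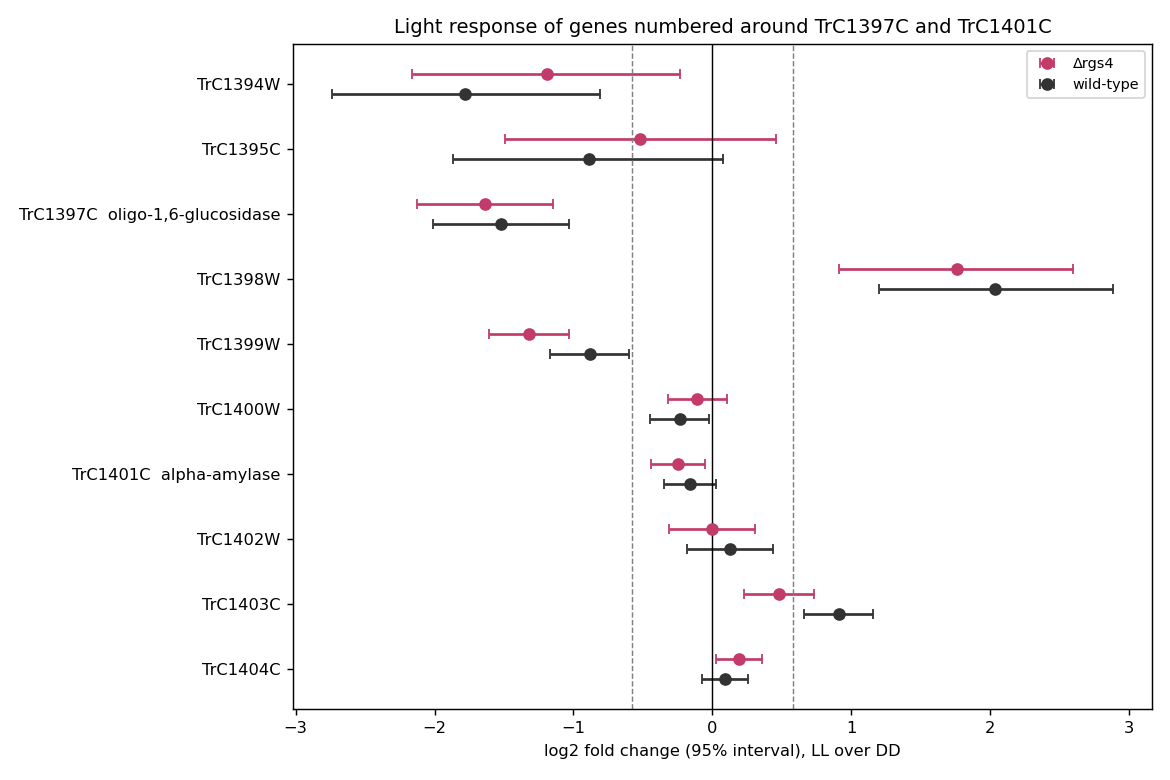
Log2 fold change of LL over DD (horizontal axis) with its 95% interval in Δrgs4 and in wild-type for the 10 tested genes numbered TrC1394 to TrC1404; dashed lines mark the fold threshold of 0.58. TrC1397C and TrC1398W lie on opposite sides, at -1.64 and 1.76 in Δrgs4 and at -1.52 and 2.04 in wild-type.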

How the data were processed

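RNA of 12 mycelium cultures was sequenced with paired ends after ribosomal RNA depletion with a stranded kit. Per the study's methods and processing notes, the authors trimmed reads with bbduk 38.18, aligned them to the QM6a genome with HISAT2 2.2.1, counted them per gene with featureCounts 2.0.1 and normalized with DESeq2. The sources used here do not state how counting handled strand and multiply aligned reads. Genes that overlap, or that have a near-identical copy, are uncertain for that reason. The authors deposited log2 values from the DESeq2 variance stabilizing transformation. A count table has 12 columns that were not used, because their names match no sample label.

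The transformation was inverted to normalized counts (counts divided by size factors) and whole reads, within 0.01 of a whole number for 100% of genes in each library. Genes reaching 10 reads in 3 or more libraries were tested with limma 3.58.1 in R 4.3.3 on log2(normalized counts + 2), with 4 group means over 12 libraries and Benjamini-Hochberg adjustment over the 8895 tested genes. Fold changes are on the log2(normalized counts + 2) scale, which understates the change of low genes, and SE is the moderated standard error. A gene was called at an absolute log2 fold change over 0.58 and an adjusted p under 0.05, the thresholds of the study's methods. Python 3.11.15, pandas 2.3.3, numpy 2.4.6 and matplotlib 3.10.9 were used for the rest. The fits were tested on simulated data.

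Replicates were separate cultures, so p-values measure the spread between these cultures, and no 2 libraries of the same group agreed within sampling noise. The genes named were the 8 genes of the scheme, rgs4, the other 6 genes of the scheme, the genes TrC1394 to TrC1404 and, for each of the 8, the 3 tested genes with the highest Pearson r over the libraries. The 8 genes and these lists were chosen with earlier results of these data known. All 14 genes of the scheme matched RefSeq, which gave the spans. Alternatives were other pseudocounts, size factors, filters, thresholds and samples, limma-voom, the values as deposited, a replicate block and each library left out in turn. For single genes outside the 8, only the fit without replicate 3 of Δrgs4 in DD was examined. No marker list was at hand to check the label mycelium.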

Additional observations from a re-analysis of the deposited data

How the results depend on the processing

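The number of the 8 genes called stayed at 0 for the deletion in LL, in DD and for the interaction under all alternatives run. For LL against DD in wild-type, where 1 was called, it was 0 with the values as deposited (the oligo-1,6-glucosidase at -0.55, since that transformation compresses low values) and 4 with the adjusted p alone. For LL against DD in Δrgs4, where 2 were called, it was 5 with the adjusted p alone and 1 when 1.5-fold was tested, which lost the branching enzyme. With a replicate block on the label numbers these counts were again 0, 0, 0, 1 and 2, in the order LL, DD, interaction, wild-type and Δrgs4. The numbers did not pair the samples: 18 same-numbered pairs had r between -0.41 and 0.35, with 6 over 0.1 and 6 correlating best with their own number.

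Signs turned for values near 0. The oligo-1,6-glucosidase (TrC1397C) for the deletion in DD had -0.01 with upper-quartile factors and -0.03 with total reads as library size, and -0.10 to 0.08 with single libraries left out. With single libraries left out it had -0.24 to 0.10 in LL and -0.25 to 0.10 for the interaction. Hxk1 (TrE0694C) had -0.07 to 0.05 for the interaction, the alpha-glucosidase (TrD1393W) -0.18 to 0.05 for light in wild-type (0.04 with upper-quartile factors), and the debranching enzyme (TrG1003W) -0.03 to 0.03 for light in Δrgs4 (-0.01 with total reads). The glucoamylase (TrE0969W) had -0.04 to 0.13 for light in Δrgs4.

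Counts over all tested genes moved more. For the deletion in LL (188) they were 35 with the values as deposited, 795 with the adjusted p alone, 2 when 1.5-fold was tested, and as low as 50 with a library left out; upper-quartile factors gave 21 higher and 191 lower and total reads 16 and 241, against 38 and 150. For DD (8) they were 39 with limma-voom, 29 as deposited, 5 with a pseudocount of 0.5, 4 without the read filter, 3 with the block, 2 with upper-quartile factors or total reads, 1 in the 6 libraries alone or when 1.5-fold was tested, and 1 to 283 with a library left out. For the interaction (63) they were 26 with upper-quartile factors (3 positive), 25 with total reads (1 positive, against 18 in the main count), 37 without the read filter, 40 with limma-voom, 4 with the block, 0 when 1.5-fold was tested, and 7 to 192 with a library left out. For light they were 1988, 5262 and 1873 in Δrgs4 (3221) and 2013, 5259 and 1927 in wild-type (3280) as deposited, with the adjusted p alone and with 1.5-fold tested. The oligo-1,6-glucosidase, on 23 to 110 reads per library, is limited by depth.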
